A study of Mus musculus with 12 samples.

Results

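Of the 25759 genes listed for each of 12 RNAseq libraries of mouse embryonic stem cells (ESCs), 8 that carry the signal of leukaemia inhibitory factor (LIF) through STAT3 were examined. They were chosen by name and are the receptor subunits Lifr and Il6st, the kinase Jak1, the transcription factor Stat3, the feedback inhibitors Socs3 and Socs2, and the kinases Pim1 and Pim3. All 8 were found in all 12 libraries, and all 8 had enough reads to be tested in every comparison. In the deposited GRCm38 coordinates Lifr (7090614 to 7197489) and Pim3 (88862186 to 88865718) lie on chromosome 15, Il6st (112464070 to 112510086) on 13, Jak1 (101152367 to 101265282) on 4, Stat3 (100885098 to 100939540) and Socs3 (117966079 to 117970047) on 11, Socs2 (95385362 to 95417180) on 10 and Pim1 (29490812 to 29496111) on 17. The study asked how loss of Cdk8, a kinase of the mediator complex, changes the response to Xist, the RNA that silences the X chromosome. HATX3 ESCs, the cells of all 4 groups, carry a doxycycline-inducible Xist allele. The study's general ESC medium holds serum and LIF, with inhibitors of Gsk3 and Mek added for maintenance, but the sources used here do not give the medium of the RNAseq cultures, and whether the inhibitors were present is unknown. The wild-type (WT) groups are the parental HATX3 ESCs in uninduced conditions and after 48 h of Xist expression, with libraries numbered 1, 2 and 3. The ΔCdk8 groups are clones 8, 11 and 15, each grown from a single cell after deletion of a stretch with the Cdk8 start codon and each sequenced in uninduced conditions and after 48 h of Xist expression. A clone is thus a single line, so that what sets a clone apart and what the mutation does cannot be separated within 1 clone. The paper calls the parental HATX3 ESCs polyclonal and allows that they may have held some differentiated cells. Growth from a single cell and the mutation therefore cannot be told apart in any comparison of the genotypes. Nothing in the sources says that the WT samples came from separate cultures, and p-values then measure only the spread between these samples.

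LIF binds a receptor made of Lifr and Il6st, also known as gp130, and the bound receptor activates Jak kinases. These phosphorylate STAT3, which moves to the nucleus and activates genes that hold mouse ESCs in the pluripotent state. SOCS proteins are made in response to STAT signalling and dampen it, and PIM kinases are further products of STAT3-driven transcription that promote survival and self-renewal. CDK8 is among the kinases known to phosphorylate STAT factors in the nucleus, which is the reason to look at these genes in cells that lack it.

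STAT factors bind DNA at the palindrome TTCNNNGAA, which reads the same on both strands. Among promoter windows of RefSeq, from 250 bases before to 50 bases after a gene start on GRCm38.p6, 8.30% of 32851 windows held these letters. A window was listed for 7 of the 8 genes, with 9 windows in all, and 1 of the 9 held the motif, that of Socs3. Socs3 is the classical STAT3 target of the set, and the start of its window is shown with that of Pim1, the gene with the largest difference between genotypes among the 8. The capitals mark TTCNNNGAA, which begins at position -154 relative to the RefSeq start of Socs3. Both stretches run 5′ to 3′ on the strand of the gene, from position -250 to -91, at chr11:117969457-117969616 on the reverse strand for Socs3 and at chr17:29490535-29490694 on the forward strand for Pim1. The Socs3 stretch lies inside the span that the deposited tables give for the gene (chromosome 11, 117966079 to 117970047). Neither of the listed Pim1 windows holds these letters, which says nothing about STAT3 at other places of the gene.
Socs3: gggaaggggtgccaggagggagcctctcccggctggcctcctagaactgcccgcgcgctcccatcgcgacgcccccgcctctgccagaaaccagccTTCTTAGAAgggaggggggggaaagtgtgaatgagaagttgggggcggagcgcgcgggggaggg
Pim1: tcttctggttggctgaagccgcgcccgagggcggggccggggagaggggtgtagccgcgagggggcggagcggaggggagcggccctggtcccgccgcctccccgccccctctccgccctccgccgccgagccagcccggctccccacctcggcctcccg

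Sequencing depth ranged from 22170087 to 60798578 gene reads per library, with between 773 and 8962 reads per library on each of the 8 genes. The summed level of 8 ESC markers lay between 4352 and 7819 TPM (exon reads per exon length, scaled to the same sum in every library) in all 12 libraries, with Dppa5a as its largest part in each. Single ESC markers differed between groups. Nanog read 157, 98.4 and 50.2 TPM in uninduced WT libraries 1, 2 and 3 and 403, 321 and 192 TPM in uninduced clones 8, 11 and 15. After induction Nanog read 210, 153 and 112 TPM in WT and 407, 345 and 232 TPM in the clones. Esrrb read 118, 68.3 and 32.4 TPM in uninduced WT and 176, 145 and 121 TPM in uninduced clones, and 247, 227 and 210 TPM in WT and 207, 203 and 157 TPM in the clones after induction. Of the 8 ESC markers, Esrrb, Sox2 and Zfp42 were higher and Tdgf1 lower on induction in WT without overlap of the groups, none was set apart on induction in the clones, Nanog, Esrrb and Sox2 were higher in uninduced clones than in uninduced WT, and in induced conditions Nanog was higher and Esrrb lower in the clones. The part of these markers in the results was not tested. Markers of primitive endoderm and mesoderm summed to at most 11.8 TPM. The primitive endoderm marker Gata4 and the trophoblast marker Eomes were higher in every clone than in every WT library in either condition. Their part in the genotype differences was not tested. The 5 fibroblast markers, of which Thy1 was the 1 with a mean above 1 TPM, summed to 8.66 to 17.6 TPM in uninduced WT and 19.7 to 29.3 TPM in uninduced clones, and to 5.54 to 15.2 and 21.3 to 32.3 TPM after induction. The sum was thus higher in the clones without overlap, as were the single genes Pim1 and Pim3. Thy1 itself overlapped between uninduced genotypes, at 1.61, 2.46 and 0.909 times the WT mean in clones 8, 11 and 15. In induced conditions Thy1 was higher in the clones without overlap. The part of the fibroblast markers in the genotype differences was not tested. The 5 neural markers summed to 10.4 to 41.4 TPM, of which Nes was the 1 with a mean above 1 TPM. Trophoblast markers (7 genes, of which Cdx2 had a mean under 1 TPM) summed to 168 and 202 TPM in uninduced and induced WT replicate 1, to 15.3 to 55.3 TPM in WT replicates 2 and 3, and to 70.1 to 564 TPM in the clones. The trophoblast gene Hand1 stood at 35.5 and 23.1 TPM in WT replicate 1, at up to 0.598 TPM in WT replicates 2 and 3 and at 8.71 to 35.4 TPM in the clones. WT replicate 1 thus stands apart, and some values are also given without it or as a range with 1 library left out. In bulk RNA, fewer cells of a type and less RNA per cell cannot be told apart. Cdk8 itself read 64.2 to 74.2 TPM in uninduced WT libraries and 34.4, 56.8 and 85.3 TPM in uninduced clones 8, 11 and 15. Reads outside the small deletion do not check the genotype, and Xist, not analysed here, could not serve as a check of induction.

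The mRNAs of the 8 genes were present at moderate to high levels in every group. In uninduced WT cells, mean TPM was 85 for Socs3, 60.4 for Pim3, 47.3 for Socs2, 45.5 for Stat3, 45.1 for Pim1, 22.7 for Jak1, 19.5 for Lifr and 11.1 for Il6st. Socs2, Stat3 and Pim1 lay within their spread of each other, as did Jak1 and Lifr. Socs3, Socs2 and both PIM kinases thus exceeded both receptor subunits in mean TPM, a scale per length. In the uninduced clones the mean was 113 TPM for Socs3, 97.9 for Pim3, 96.0 for Pim1, 42.8 for Jak1, 37.4 for Stat3, 34.7 for Socs2, 18.2 for Lifr and 15.5 for Il6st.

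**Figure D1:**
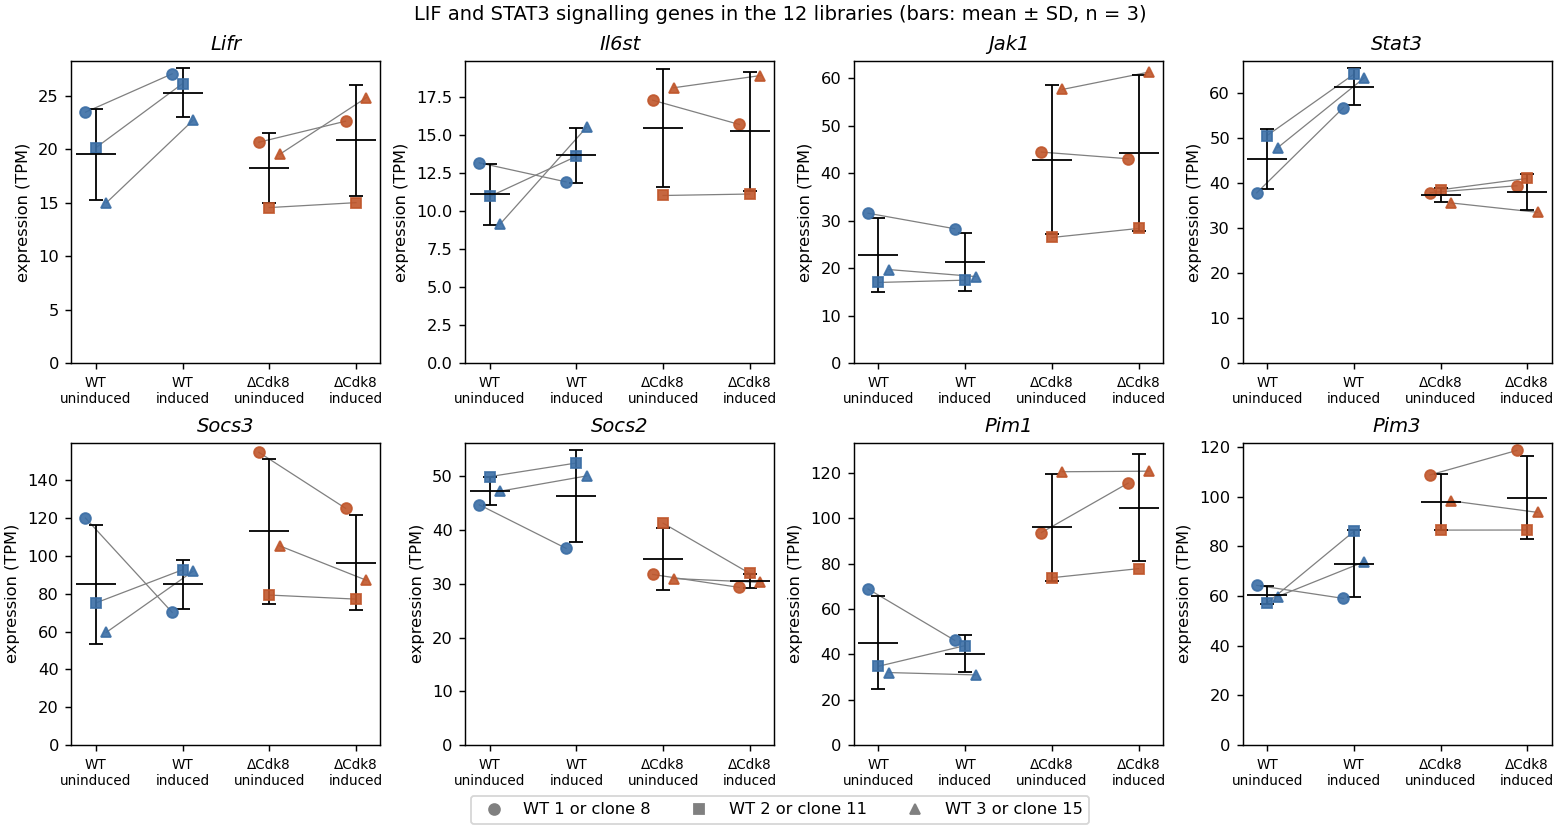
Expression (TPM, vertical axis from 0) of the 8 genes in WT (blue) and ΔCdk8 (orange) libraries in uninduced and induced conditions. Each point is 1 library, grey lines join libraries of the same WT number or clone, and black bars give the mean ± SD (n = 3). Pim1 and Pim3 are higher in every clone library than in every WT library, and Stat3 in induced WT libraries lies above all others.

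For the receptor subunits no comparison passed the threshold. Lifr, which binds LIF, stood at 23.5, 20.2 and 15 TPM in uninduced WT libraries 1, 2 and 3, and at 27.1, 26.1 and 22.7 TPM after induction. It was higher in the induced library of each of the 3 WT pairs, by ratios of 1.15, 1.30 and 1.51, although the groups overlap. In clones 8, 11 and 15 Lifr stood at 20.7, 14.6 and 19.5 TPM uninduced and at 22.6, 15 and 24.8 TPM induced. The log2 fold change on induction was 0.39 in WT (SE 0.18, adjusted p = 0.262, edgeR) and 0.23 in ΔCdk8 cells (SE 0.19, adjusted p = 1.00). The difference between clones and WT was -0.24 uninduced (SE 0.20, adjusted p = 0.474, edgeR) and -0.41 induced (SE 0.18, adjusted p = 0.203), and the uninduced difference ran from -0.41 without WT replicate 3 to -0.093 without WT replicate 1. With the WT number as a block, the WT change was 0.42 (SE 0.11, adjusted p = 0.0451, edgeR), short of a 2-fold change. Without WT replicate 3 the blocked adjusted p was 0.215, and without replicate 2 it was 0.223. With the clone as a block, the change in ΔCdk8 cells was 0.22 (SE 0.080, adjusted p = 0.0884, edgeR). The blocked difference between the genotypes in this change was -0.18 (SE 0.14, adjusted p = 0.488, edgeR).

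Il6st, the shared signalling subunit of the interleukin 6 family of receptors, was measured at 13.2, 11 and 9.16 TPM in uninduced and at 11.9, 13.6 and 15.6 TPM in induced WT libraries. The clones 8, 11 and 15 gave 17.3, 11 and 18.1 TPM uninduced and 15.7, 11.1 and 18.9 TPM induced. All 4 groups overlap. Clone 11 stayed near the uninduced WT level in both conditions and, when induced, lay below every induced WT library. Clones 8 and 15 lay above all uninduced WT libraries, at 1.56 and 1.63 times the WT mean when uninduced. The log2 change on induction in WT was 0.32 (SE 0.19, adjusted p = 0.380, edgeR), 0.55 without WT replicate 1 (SE 0.12, adjusted p = 0.0259) and 0.054 without WT replicate 3 (SE 0.20, adjusted p = 0.978). The genotype difference was 0.31 on the log2 scale in uninduced conditions (SE 0.20, adjusted p = 0.388, edgeR) and -0.0061 in induced conditions (SE 0.20, adjusted p = 0.987). With 1 library left out the uninduced difference ran from 0.17 to 0.45.

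Jak1, the kinase bound to Il6st, was higher in clones 8 and 15 than in WT cells. Uninduced WT libraries 1, 2 and 3 held 31.6, 17.0 and 19.7 TPM, and the uninduced clones 8, 11 and 15 held 44.4, 26.4 and 57.6 TPM. WT replicate 1 exceeded clone 11, so that the groups overlap, whereas WT replicates 2 and 3 lay below every clone. In induced conditions Jak1 stood at 28.3, 17.5 and 18.2 TPM in WT and at 43.0, 28.4 and 61.2 TPM in the clones, where the lowest clone and the highest WT library were next to each other without overlap. The uninduced difference was 0.73 (log2, SE 0.30, adjusted p = 0.235, edgeR) with all libraries and 1.04 (SE 0.27, adjusted p = 0.0838) without WT replicate 1. The induced difference was 0.88 (log2, SE 0.26, adjusted p = 0.103, edgeR).

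Stat3, the transcription factor that carries the LIF signal to the nucleus, was higher in every induced than in every uninduced WT library, as were the ESC markers Esrrb, Sox2 and Zfp42, while Tdgf1 was lower. Its level was 37.9, 50.6 and 47.9 TPM in uninduced WT libraries 1, 2 and 3 and 56.9, 64.3 and 63.5 TPM in induced ones, and the induced library was higher in each WT pair, by ratios of 1.5, 1.27 and 1.32. In clones 8, 11 and 15 it was 38.0, 38.6 and 35.7 TPM uninduced and 39.5, 41.1 and 33.6 TPM induced, with ratios of 1.04, 1.07 and 0.941. All 6 clone libraries lay below every induced WT library, and uninduced WT replicate 1 was at the level of the clones.

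The fitted log2 change of Stat3 on induction in WT cells was 0.46 (SE 0.14, adjusted p = 0.128, edgeR). Without WT replicate 1 it was 0.39, below the values that Il6st (0.55), Lifr (0.50), Pim3 (0.49) and Socs3 (0.48) had without that replicate. With the WT number as a block it was 0.47 (SE 0.067, adjusted p = 0.00823, edgeR), below the 2-fold minimum. Without WT replicate 1, 2 or 3 the blocked change was 0.39, 0.50 and 0.44, with adjusted p of 4.58e-04, 0.0787 and 0.0595. In the clones the change was 0.064 (SE 0.19, adjusted p = 1.00, edgeR), and 0.056 with the clone as a block (SE 0.075, adjusted p = 0.713). The difference between the genotypes in this change was -0.37 (SE 0.25, adjusted p = 1.00, edgeR), and -0.39 with the blocks (SE 0.098, adjusted p = 0.0479). Left out 1 at a time, 5 of the 6 WT numbers and clones took the adjusted p of the blocked difference to between 0.0764 and 0.147, and leaving out WT replicate 1 gave 0.0342.

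The feedback inhibitors Socs3 and Socs2 moved in different directions in different WT pairs. Socs3, which binds Il6st and Jak kinases and blocks them, read 120, 75.2 and 59.6 TPM in uninduced and 70.2, 92.7 and 91.9 TPM in induced WT libraries 1, 2 and 3. The induced to uninduced ratio was 0.584 in replicate 1 and 1.23 and 1.54 in replicates 2 and 3, and the mean was 85 ± 31.4 TPM before and 84.9 ± 12.8 TPM after induction (SD, n = 3). In clones 8, 11 and 15 the values were 155, 79.3 and 105 TPM uninduced and 125, 77.2 and 87.2 TPM induced, lower after induction in all 3 clones by ratios of 0.809, 0.973 and 0.827. The log2 change was 0.033 in WT (SE 0.28, adjusted p = 0.963, edgeR), between -0.27 and 0.48 in WT with 1 replicate left out (0.48 without replicate 1, SE 0.12, adjusted p = 0.0384), and -0.20 in ΔCdk8 cells (SE 0.27, adjusted p = 1.00). With the clone as a block the latter was -0.19 (SE 0.077, adjusted p = 0.128, edgeR).

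Socs2, a SOCS protein best known for restraining growth hormone signalling, was lower in the clones. It stood at 44.7, 49.97 and 47.3 TPM in uninduced WT libraries and at 31.7, 41.3 and 31.0 TPM in uninduced clones 8, 11 and 15, and the groups do not overlap. After induction it stood at 36.6, 52.5 and 50.1 TPM in WT and at 29.3, 31.9 and 30.3 TPM in the clones, again without overlap. The log2 difference was -0.57 uninduced (SE 0.20, adjusted p = 0.196, edgeR) and -0.76 induced (SE 0.20, adjusted p = 0.0857). Clone 11 was nearest to WT in both conditions, and without it the uninduced difference was -0.82 (SE 0.12, adjusted p = 0.0274).

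Both PIM kinases were higher in ΔCdk8 than in WT libraries in either condition, as was Nanog, while Esrrb was higher in the clones in uninduced and lower in induced conditions. Pim1 stood at 68.8, 34.7 and 31.9 TPM in uninduced WT libraries 1, 2 and 3 and at 93.7, 73.8 and 121 TPM in uninduced clones 8, 11 and 15. WT replicate 1 lay far above the other WT libraries and just under the lowest clone. Induced libraries gave 46.1, 43.8 and 30.9 TPM in WT and 115, 77.8 and 121 TPM in the clones. The log2 change on induction in WT was -0.14 (SE 0.32, adjusted p = 0.852, edgeR), and 0.19 without WT replicate 1 (SE 0.17, adjusted p = 0.453). The log2 difference in uninduced conditions was 0.91 (SE 0.31, adjusted p = 0.189, edgeR), and 1.34 without WT replicate 1 (SE 0.18, adjusted p = 0.0376). In induced conditions it was 1.19 (SE 0.20, adjusted p = 0.0536, edgeR), and 1.17 in DESeq2 (adjusted p = 5.17e-05), where it passed the threshold. The clones exceeded the WT mean by ratios of 2.08, 1.63 and 2.67 in uninduced and of 2.87, 1.93 and 3.0 in induced conditions.

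Pim3 gave 64.3, 57.2 and 59.7 TPM in uninduced WT libraries 1, 2 and 3 and 109, 86.5 and 98.3 TPM in uninduced clones 8, 11 and 15. The uninduced WT libraries had an SD of 3.60 TPM (n = 3), and every clone exceeded them. Induced libraries gave 59.0, 86.0 and 73.8 TPM in WT and 119, 86.6 and 93.7 TPM in the clones, and WT replicate 2 came to just below clone 11. The log2 change on induction in WT was 0.32 (SE 0.17, adjusted p = 0.346, edgeR), 0.49 without replicate 1 (SE 0.091, adjusted p = 0.0153) and 0.13 without replicate 2 (SE 0.22, adjusted p = 0.933). The log2 difference between genotypes was 0.53 uninduced (SE 0.13, adjusted p = 0.143, edgeR) and 0.26 induced (SE 0.22, adjusted p = 0.470), and the induced difference ran from 0.096 without WT replicate 1 to 0.40 without WT replicate 2. DESeq2 gave 0.51 with an adjusted p of 0.0119 for the uninduced difference.

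Counted over the 8 genes, Xist induction in WT cells left all of them under the threshold, set at more than a 2-fold change and adjusted p below 0.01. This was 0 of 8 in edgeR, in edgeR with the block and in DESeq2, where 1.16%, 3.95% and 4.74% of all genes tested passed. At an unadjusted p under 0.05, 1 of 8 was higher in edgeR, that is Stat3, beside 21.2% of all genes. With the block and no minimum for the fold change, 2 of 8, Stat3 and Lifr, had an adjusted p below 0.05, beside 23.0% of all genes. Stat3 was also the 1 of 8 whose WT groups do not overlap, as for 26.3% of all genes. The median log2 change was 0.18 over the 8 genes and 0.030 over the 14006 genes tested.

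In ΔCdk8 cells none of the 8 passed the same threshold on induction in the tests run. The count was 0 of 8 in edgeR, with 0% of all genes past it, 0 of 8 in DESeq2 with 0.243%, and 0 of 8 in edgeR with the clone as a block with 1.40%. At an unadjusted p under 0.05 the edgeR count was also 0 of 8, with 2.64% of all genes, and 0 of 8 genes had groups that do not overlap, with 5.25%. The log2 changes lay between -0.20 and 0.23, with standard errors of 0.17 to 0.29, and with the clone as a block the standard errors were 0.074 to 0.083. The median change was 0.058 over the 8 genes and 0.014 over the 14832 genes tested.

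The change on induction was compared between genotypes for each gene in 1 fit of all 12 libraries. None of the 8 differed past the threshold, as 0 of 8 in edgeR (0% of 15137 genes), in DESeq2 (0.219%) and in edgeR with blocks (0.998%). At an unadjusted p under 0.05 the count was 0 of 8 in edgeR, beside 3.88% of all genes. With blocks and an adjusted p under 0.05, 1 of 8 differed, Stat3, beside 6.01% of all genes. The differences lay between -0.37 for Stat3 and 0.30 for Pim1 on the log2 scale, with standard errors of 0.25 to 0.42. The range moved with WT replicate 1, without which Pim1 gave -0.054 and Socs3 had the lowest value, -0.69, while without WT replicate 3 Socs3 gave 0.072.

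**Figure D2:**
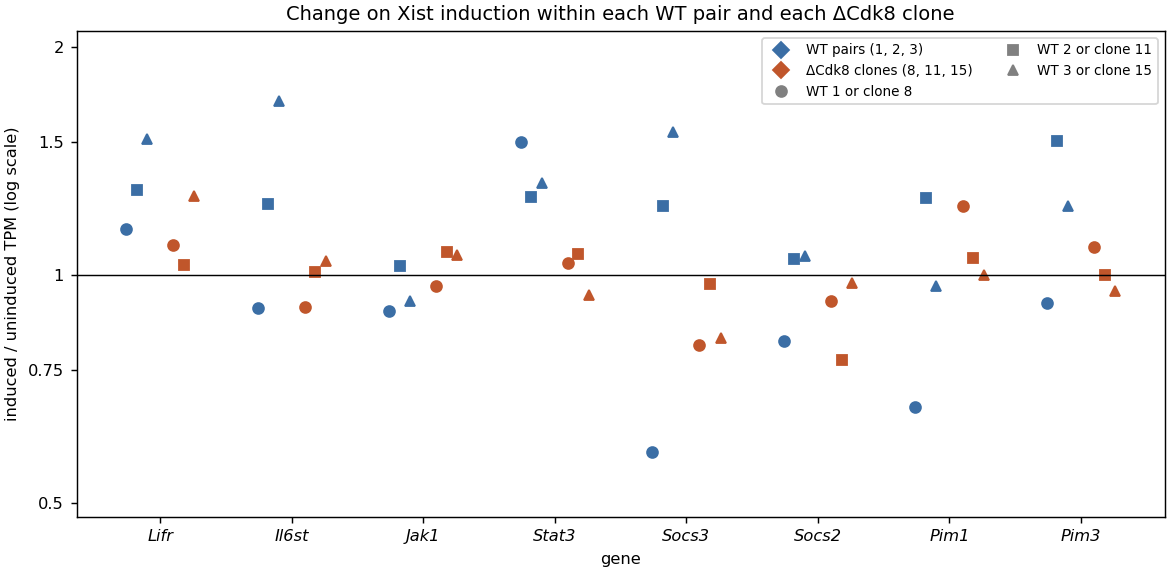
Ratio of induced to uninduced TPM (log scale) for each of the 8 genes, in each WT pair (blue) and each ΔCdk8 clone (orange), with 1 as the level of no change. Stat3 and Lifr lie above 1 in all 3 WT pairs, Stat3 in the clones lies between 0.941 and 1.07, and Socs3 lies below 1 in all 3 clones and in WT replicate 1. In the clones Socs2 also lies below 1 in all 3, and Lifr and Pim1 above 1, while of all genes tested 3936 rose and 4119 fell in all 3 WT pairs (of 14006) and 2695 rose and 3753 fell in all 3 clones (of 14832).

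Between genotypes in uninduced conditions 0 of 8 passed the threshold in edgeR (0% of all genes) and in DESeq2 (2.69%). At an unadjusted p under 0.05, 5 of 8 differed in edgeR, with Pim1, Pim3 and Jak1 higher and Socs2 and Stat3 lower in the clones, beside 20.4% of 14646 genes. In 3 of 8 the groups do not overlap, with Pim1 and Pim3 higher and Socs2 lower, beside 23.1% of all genes. The median difference was 0.27 over the 8 genes and 0.026 over all genes tested.

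Induced libraries were compared between genotypes as well, a comparison added after seeing the data. In edgeR 0 of 8 passed the threshold (0% of 14143 genes), and in DESeq2 1 of 8 did, Pim1, beside 5.94% of all genes. At an unadjusted p under 0.05 the edgeR count was 4 of 8, with Pim1 and Jak1 higher and Stat3 and Socs2 lower, beside 25.9% of all genes. In 5 of 8 the groups do not overlap, with Pim1, Pim3 and Jak1 higher and Stat3 and Socs2 lower, beside 28.7% of all genes. Stat3 differed by -0.81 on the log2 scale (SE 0.19, adjusted p = 0.0693, edgeR), with an adjusted p of 0.00326 in DESeq2. The uninduced difference of Stat3 was -0.42 (SE 0.17, adjusted p = 0.229, edgeR), and ran from -0.54 to -0.33 with 1 library left out.

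**Figure D3:**
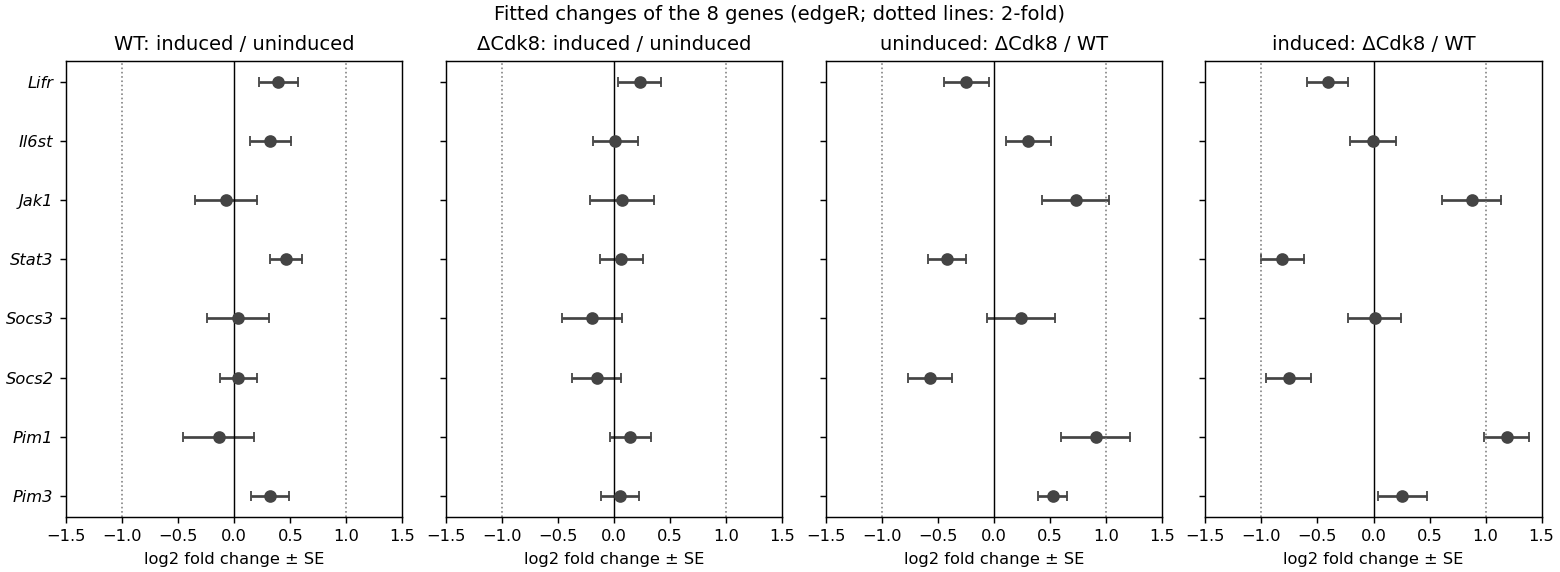
Fitted log2 fold changes (points) with standard errors (bars) of the 8 genes in 4 comparisons, with dotted lines at a 2-fold change. On induction the points lie between -0.20 and 0.46, and between genotypes they reach -0.81 for Stat3 and 1.19 for Pim1.

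Levels also differed between libraries of 1 genotype. Among the uninduced WT libraries, replicate 1 was the highest for 6 of 8 (Lifr, Il6st, Jak1, Socs3, Pim1 and Pim3) and the lowest for the other 2, Stat3 and Socs2, beside 43.8% and 42.8% of the 12131 genes with a mean of at least 1 TPM. This order did not hold after induction, where replicate 1 was the highest WT library for 3 (Lifr, Jak1 and Pim1) and the lowest for 5 (Il6st, Stat3, Socs3, Socs2 and Pim3). The shares of the 12131 genes were 48.6% and 37.4%. Among the clones, clone 11 was the lowest for the same 6 and the highest for the same 2, in uninduced and in induced conditions. Over the same 12131 genes clone 11 was the lowest for 53.8% uninduced and 46.8% induced and the highest for 27.4% and 28.1%. With 3 libraries in a group, each of them is at an end for many genes. Uninduced WT replicates 2 and 3 were the highest for 25% and 31.2% and the lowest for 27.3% and 29.9%. Uninduced clones 8 and 15 were the highest for 28.1% and 44.6% and the lowest for 25.8% and 20.4%. Trophoblast markers were highest in replicate 1 among the WT libraries in both conditions and lowest in clone 11 among the clones, at 75.2 and 70.1 TPM, and their part in these differences was not tested. Across the 12 libraries, as a description over libraries that share genotype and clone, log2(TPM + 1) of Jak1 and Pim1 had r = 0.93, that of Jak1 and Socs2 r = -0.89, that of Pim1 and Socs2 r = -0.88 and that of Stat3 and Pim1 r = -0.85. Lifr and Pim1 had r = 0.018.

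Among the 12131 genes with a mean of at least 1 TPM, the closest in pattern over the 12 libraries, again by r of log2(TPM + 1), were Tmem59 for Jak1 (0.99), Siah2 for Pim1 (0.98), Wscd1 for Stat3 (0.97), Ezh1 for Il6st (0.96) and Nid2 for Pim3 (0.96). Socs3 was closest to Tspan17 (0.93) and Lifr to Ccdc117 (0.93).

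The reads behind these values came mainly from exons and were not shared with other genes. All exon reads of the 8 genes mapped uniquely. Intron reads made up between 0.419% (Socs3) and 8.66% (Lifr) of a gene's reads in a library. Intron reads of Stat3, 72 to 403 per library, gave a log2 ratio of induced to uninduced group means of 0.38 in WT and 0.37 in the clones, against 0.44 and 0.035 for exon reads. For Pim1 the ratio of clones to WT in uninduced conditions was 0.84 in intron reads, which numbered 19 to 87 per library, and 1.04 in exon reads. For Jak1 it was 1.31 in intron reads, 8 to 152 per library, and 0.86 in exon reads. For Stat3 it was 0.25 in intron and -0.32 in exon reads. Over all genes, intron reads made up 4.77% to 5.54% of gene reads in uninduced and 5.42% to 6.59% in induced WT libraries, and 5.39% to 6.87% and 5.38% to 7.59% in the clones. These intron ratios rest on few reads and were not tested.

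The chromosomes that carry the 8 genes stood near the autosomal level in every clone. In uninduced conditions, the median log2 ratio of a clone to the WT mean, less the autosomal median, lay between -0.12 (chromosome 17, which holds Pim1, in clone 15) and 0.024 (the same chromosome in clone 11). It was between -0.049 and -0.012 for chromosome 4, which holds Jak1, and between -0.073 and 0.0024 for chromosome 11, which holds Stat3 and Socs3.

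Of 52 other genes of the pathway, 49 had enough reads to be tested in the WT comparison, and 1 rose past the threshold on Xist induction, beside 1.16% of all genes past it in edgeR. This was Jak3, a Jak kinase of lymphoid cytokine receptors, at 13.3, 12.5 and 13.0 TPM in uninduced and 31.5, 30.8 and 33.8 TPM in induced WT libraries. Its log2 change was 1.37 (SE 0.11, adjusted p = 0.00256, edgeR), and it kept 1.36 and 1.30 but missed the threshold without WT replicate 2 or 3, and gave 1.34 under the threshold with all 12 libraries in 1 fit. In clones 8, 11 and 15 Jak3 stood at 32.9, 13.8 and 8.66 TPM uninduced and at 40.2, 20.2 and 9.70 TPM induced. None fell past the threshold in edgeR without the block or in DESeq2, and at an unadjusted p under 0.05 in edgeR 7 of 49 were higher and 5 lower, beside 21.2% of all genes. Clcf1, a ligand of the family, stood at 0.621, 1.58 and 1.56 TPM in uninduced and 0.361, 0.292 and 0.214 TPM in induced WT libraries (log2 change -2.06, SE 0.58, adjusted p = 0.0999, edgeR), with changes of -2.70 to -1.38 with 1 replicate left out. The medians were 0.067 over the 49 genes and 0.030 over all.

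Pim2, the third PIM kinase, lies on the X chromosome, and in uninduced conditions it was lower in every clone than in every WT library, whereas the induced groups overlap. It stood at 178, 571 and 699 TPM in uninduced WT libraries 1, 2 and 3 and at 31.8, 155 and 141 TPM after induction, and at 38.3, 69.6 and 43.3 TPM in uninduced and 19.2, 34.3 and 19.5 TPM in induced clones 8, 11 and 15. With the blocks it fell past the threshold on induction in both genotypes, by 2.18 on the log2 scale in WT (SE 0.13, adjusted p = 7.36e-04, edgeR) and by 1.03 in the clones (SE 0.089, adjusted p = 1.87e-07). The induced to uninduced ratio was 0.179 to 0.272 in the WT pairs and 0.452 to 0.502 in the clones. In uninduced conditions Pim2 differed by -3.37 between clones and WT (log2, SE 0.56, adjusted p = 0.113, edgeR), and by -3.39 in DESeq2 (adjusted p = 1.99e-08). With 1 library left out the edgeR difference ran from -3.82 to -3.02.

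In ΔCdk8 cells 0 of 51 tested pathway genes passed on induction in edgeR, beside 0% of all genes, with 1 of 51 at an unadjusted p under 0.05, beside 2.64%, and 0 of 51 in DESeq2, beside 0.243%. With the clone as a block Pim2 was the 1 that passed, beside 1.40% of all genes. In the comparison of inductions 0 of 51 passed in edgeR (0% of all genes) and in DESeq2 (0.219%), 2 of 51 had an unadjusted p under 0.05 in edgeR, beside 3.88% of all genes, and 1, Pim2, passed with blocks, beside 0.998%. In the uninduced genotype comparison 0 of 51 passed in edgeR, with 9 of 51 at an unadjusted p under 0.05, beside 20.4% of all genes, and 4 of 51 passed in DESeq2, beside 2.69% of all genes. The 4 are Il6ra, the interleukin 6 receptor, Pias3, an inhibitor of STAT3, Tfcp2l1, a pluripotency factor downstream of LIF and STAT3, and Pim2. In 16 of the genes the groups do not overlap, with 14 higher and 2 lower in the clones, beside 23.1% of all genes (2393 higher and 994 lower of 14646). The median difference was 0.27 over the 51 genes and 0.026 over all.

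Tfcp2l1 stood at 39.4, 16.9 and 10.01 TPM in uninduced WT libraries 1, 2 and 3 and at 91.9, 102 and 76.7 TPM in uninduced clones 8, 11 and 15, a log2 difference of 1.88 (SE 0.48, adjusted p = 0.147, edgeR), and 2.60 without WT replicate 1. Nanog and Esrrb were likewise higher in the uninduced clones. Klf4, another STAT3 target in ESCs, was at 46.3, 51.7 and 26.2 TPM against 71.6, 84.7 and 54.7 TPM (log2 difference 0.62, SE 0.31, adjusted p = 0.294, edgeR). With 1 library left out the difference of Klf4 ran from 0.36 to 0.82. Of the other listed targets of LIF and STAT3, Klf5, Junb, Bcl3, Fos, Mcl1 and Pramel7 had a clone mean above the uninduced WT mean. Myc, Cebpd, Sall4 and Gbx2 had a lower clone mean, at ratios of 0.572, 0.644, 0.854 and 0.906, with overlapping groups. Pias3 was at 15.2, 10.3 and 11.9 TPM in WT and at 33.9, 19.4 and 33.5 TPM in the clones (log2 difference 1.04, SE 0.23, adjusted p = 0.130). Il6ra was low, at 0.0907 to 0.401 TPM in uninduced WT libraries and 1.45 to 4.32 TPM in uninduced clones (log2 difference 3.46, and 4.31 without WT replicate 1). Lif itself, which the general ESC medium supplies as protein, read 1.59 to 3.14 TPM in uninduced WT libraries and 0.934 to 1.30 TPM in uninduced clones (log2 difference -1.12, SE 0.40, adjusted p = 0.200).

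**Figure D4:**
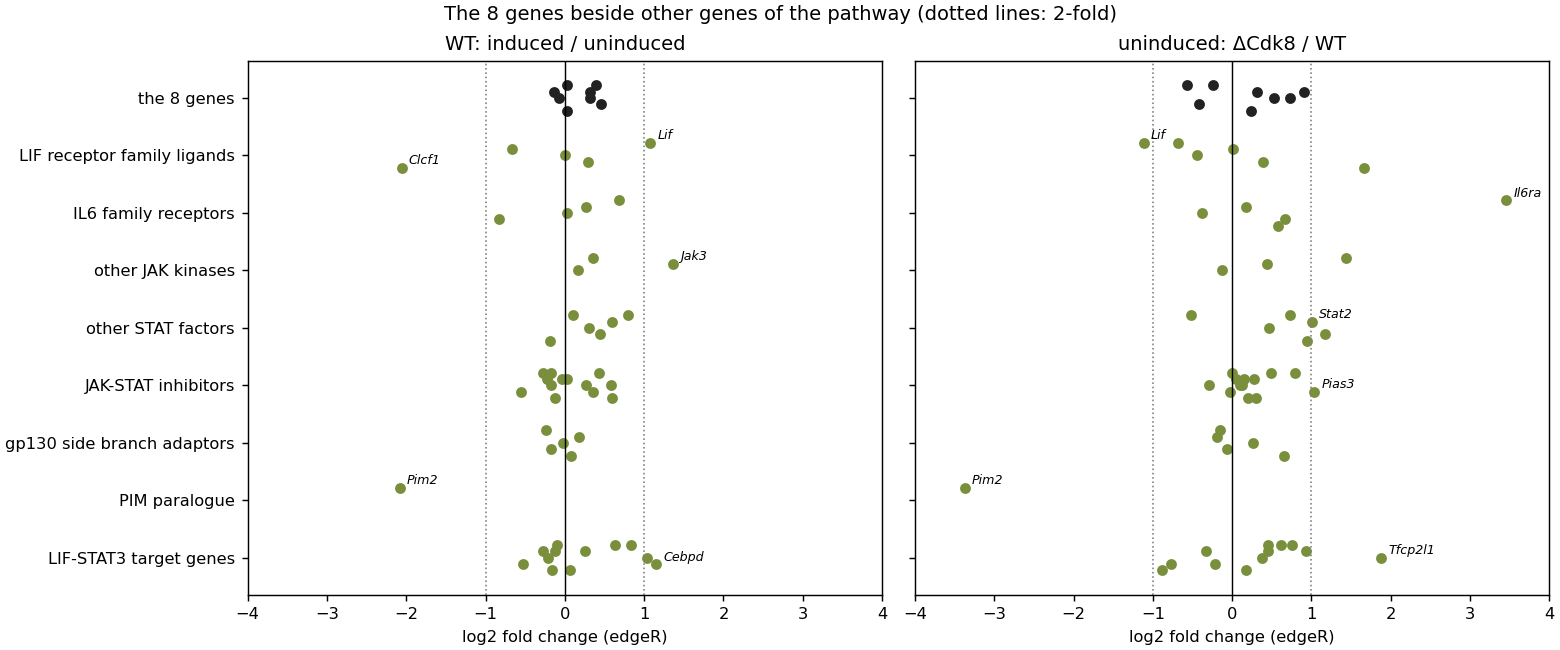
Fitted log2 fold changes (edgeR) of the 8 genes (black) and of the other pathway genes (green) by list, for induction in WT cells (left) and for ΔCdk8 against WT in uninduced conditions (right), with dotted lines at a 2-fold change. On induction Jak3 (1.37) lies farthest to the right and Pim2 (-2.08) and Clcf1 (-2.06) farthest to the left, and Il6ra (3.46), Tfcp2l1 (1.88) and Pim2 (-3.37) lie farthest out between genotypes.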

How the data were processed

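RNA of 12 libraries was analysed, and groups were taken from genotype, induction and number in the sample labels. From stranded libraries of polyadenylated RNA, the authors aligned reads without adapter trimming to GRCm38 in the CLC Genomics Workbench and deposited 1 table of 25759 genes per library. The deposited counts are raw reads on genes, exons and introns, and the TPM values are the authors' exon reads per length scaled per library. The RPKM values and the fraction columns that the authors deposited were not used. Total gene reads were tested in R 4.3.3 with edgeR 4.0.16 (TMM, filterByExpr with 10 reads as its minimum and 15 in total, quasi-likelihood test, Benjamini-Hochberg adjustment over all genes tested, two-sided). Genes passed with more than a 2-fold change and adjusted p below 0.01. TPM is used for levels, log2 fold changes come from the counts. Values were summarised with Python 3.11.15, pandas 2.3.3, numpy 2.4.6 and matplotlib 3.10.9.

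Alternatives were DESeq2 1.42.0, TMM over autosomal genes, only genes without any count left out, unique or exon reads, an adjusted p under 0.05, all 12 libraries in 1 fit, a block for the number, and leaving out each library or pair. Induced and uninduced clone libraries come from the same line. Over 12131 genes, deviations from group means of libraries with the same number had r = 0.613 to 0.717 in WT, where nothing else says that the samples were paired, and 0.876 to 0.922 in clones, so the numbers were taken to pair the samples. Blocked values stand beside the results they change. Steps were tested on simulated data. The 8 genes and the lists of 52 were chosen with earlier results of these data known. Genes named from the lists passed the threshold, or had groups that do not overlap and were among the 2 in their list with the largest change. Some of them are left out of the text, and 1 gene of the lists is not reported here. Depth ranged from 22170087 to 60798578 gene reads, and with 3 samples per group an SE is itself imprecise.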

Additional observations from a re-analysis of the deposited data

Results flagged for a closer look

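The change on induction differed between the genotypes in 3 of the genes reported here. These were Stat3 of the 8 genes, and Jak3 and Pim2 of the 52 listed, of which 1 is not reported. The test was that of the difference itself in edgeR with the WT number and the clone as blocks. The limit, chosen after seeing the data, was an adjusted p under 0.05 with no minimum difference. Of all 15137 genes tested 6.01% met it. At the threshold of the report (more than 2-fold and adjusted p below 0.01) Pim2 passed, and Stat3 and Jak3 did not. For Stat3 the change was lower in the clones by -0.39 on the log2 scale (SE 0.098, adjusted p = 0.0479), with induced to uninduced TPM ratios of 1.27 to 1.5 in the 3 WT pairs and 0.941 to 1.07 in the 3 clones, and leaving out 5 of the 6 WT numbers and clones 1 at a time took its adjusted p to between 0.0764 and 0.147. For Jak3 the difference was -0.98 (SE 0.13, adjusted p = 0.00332), with ratios of 2.37 to 2.61 in WT and 1.12 to 1.47 in the clones. Pim2, which is X-linked, differed by 1.17 (SE 0.15, adjusted p = 0.00326), with ratios of 0.179 to 0.272 in WT and 0.452 to 0.502 in the clones. Without blocks the adjusted p of all 3 was 1.00.

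Osmr, the oncostatin M receptor, moved up in all 3 WT pairs, with a mean induced to uninduced TPM ratio of 1.57, and down in all 3 clones, with a mean ratio of 0.547, at levels of at most 0.289 TPM in every library. This opposite movement of TPM was not tested. In gene reads the difference between genotypes was -0.12 on the log2 scale with blocks (SE 0.60, adjusted p = 0.935, edgeR).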

How the results depend on the processing

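With all genes tested, the number past the threshold moved more than that of the 8 genes. In WT induction it was 162 in edgeR, 662 in DESeq2, 553 with the replicate block, 921 in DESeq2 with the block, 639 at an adjusted p under 0.05, 3224 for both changes together, and 0 to 1154 with 1 replicate left out, without the block 0 without replicate 2 or 3 and 566 without replicate 1, and with it 44 without replicate 2. In ΔCdk8 induction it was 0, 36, 208, 183, 0 and 1744, and 0 to 299 with a clone left out (188 or more with the block). For the difference in induction it was 0, 33, 151, 359, 0 and 909, and 0 to 597 with 1 number left out (with blocks 5 without clone 8, 6 without clone 15 and 597 without WT replicate 1). Between uninduced genotypes it was 0, with 386 in DESeq2, 5 with all 12 libraries in 1 fit and 0 to 2 with 1 library left out. Between induced genotypes it was 0, with 822 in DESeq2, 4 with only genes without any count left out, 145 with all 12 libraries, 4 at an adjusted p under 0.05 and 0 to 54 with 1 library left out, highest without clone 11. Of the 8 genes, the counts moved from 0 to 2 (WT induction) and 1 (difference in induction) with the block at an adjusted p under 0.05, and to 1 in DESeq2 between induced genotypes, and remained 0 with 1 library left out. Group means moved by less than 1 SD as geometric means, as did the chromosome values, averaged over the 3 clones and set against their SD over clones, at a mean TPM of at least 5.

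Of the log2 fold changes of the 8 genes under alternatives, 532 kept sign and side of the threshold, 1 gained it and 35 reversed, in genes whose adjusted p was above 0.3 in edgeR. For WT induction, Socs3 gave -0.011 and Socs2 -0.011 with TMM over autosomal genes, and Socs2 -0.0056 in DESeq2 with the block. Il6st in the clones gave -0.0041 (TMM over autosomal genes), -0.00043 (all 12 libraries) and -0.00056 (DESeq2 with the block). Between induced genotypes Il6st gave 0.0012, 0.0020 and 0.0038 (only genes without any count left out, unique reads, exon reads) and Socs3 -0.0088 (DESeq2). With 1 library or pair left out, with and without the block, changes ranged for WT induction from -0.27 to 0.50 (Socs3), -0.096 to 0.13 (Socs2) and -0.39 to 0.19 (Pim1), for ΔCdk8 induction from -0.044 to 0.049 (Il6st) and -0.030 to 0.087 (Pim3), and for the difference in induction from -0.69 to 0.072 (Socs3) and -0.054 to 0.51 (Pim1). Between uninduced genotypes they ranged from -0.028 to 0.57 (Socs3), and between induced ones from -0.12 to 0.12 (Il6st) and -0.22 to 0.15 (Socs3). Osmr, which is not among the 8 genes, ranged from -0.10 to 1.03 between uninduced genotypes. The cause of these changes was not tested. The comparison of induced genotypes, DESeq2 with the block, and the block at an adjusted p under 0.05 or with 1 number left out were chosen after seeing the data. The replicate block changed no call of the 8 genes at the threshold.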
